A study of Saccharomyces cerevisiae with 6 samples.

Results

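Genes that build, reshape and watch over the yeast cell wall were compared between the floating film and the settled layer of the same standing cultures. The members are 48 named genes of β-1,3-glucan, β-1,6-glucan and chitin synthesis, wall remodelling, wall structure and the cell wall integrity pathway, out of 5656 genes that have a probe set paired with them alone. Each member had at least 1 such probe set, and where it had several the brightest over all arrays was read. After the dimmest 25% of all genes were left out, 44 of the 48 members and 4242 genes in all were tested.

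The biofilm group (labelled floaters) consists of 3 arrays of cells taken from the film at the air-liquid interface, and the bottom layer group (labelled sinkers) of 3 arrays of cells that had settled in the beakers. Both groups are the single Saccharomyces cerevisiae strain 3238-32, labelled MATa with the alleles leu2∆1 and lys2-801 and ura3-52, and by the labels they differ in the harvest site alone. Cells precultured for 24 h at 30°C in rich medium, until sugar was used up, were diluted 10-fold into 100 ml of minimal medium with 4% ethanol, leucine, histidine and uracil, and stood for 48 h at 27°C in 250 ml beakers. The film was aspirated before the bottom layer. The labels mention triplicate beakers without saying which array came from which, so the tests reflect sample-to-sample spread that may be partly technical, and clumped cells kept the submitters from an exact cell count.

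Of the mating type genes, STE3 and STE2 read against the label. The α-specific receptor gene STE3 had signals of 2210, 1797 and 1713 in the biofilm arrays, against 1056, 1157 and 1150 in the bottom layer arrays. The a-specific receptor gene STE2 was dimmer than the background, taken as the highest of 19 control probe sets for RNAs not spiked in, on every one of the 6 arrays. The a-factor gene MFA1 read 13.9, 18.2 and 6.87 in the biofilm and 116, 123 and 108 in the bottom layer. It was above the background on every bottom layer array, which does not go against the label, and below it on 2 biofilm arrays. The other a-factor gene, MFA2, was below the background on 2 biofilm arrays and 1 bottom layer array. The α-factor genes MF(ALPHA)1 and MF(ALPHA)2 averaged 3271 and 152 in the biofilm, against 1509 and 263 in the bottom layer. STE3 was bright and STE2 dim in both groups, so the groups were compared as labelled and the strain is called by its number.

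Signals were scaled to a common level on every array, with medians between 128 and 151, and the number of arrays limits the precision. Bottom layer replicate 3 stood apart. The 9 spiked hybridisation control probe sets had a geometric mean of 2020 on it, against 648 and 691 on the other bottom layer arrays and 397 to 712 in the biofilm. The ratio of the 3' to the 5' control probe set of the actin gene ACT1, a measure of RNA and labelling quality, was 1.54, 2.04 and 1.56 in the biofilm and 2.36, 1.80 and 3.84 in the bottom layer (exact two-sided permutation p = 0.2, where 0.1 is the smallest that 3 against 3 arrays allow). Values without it are given beside the members described as resting on it.

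The yeast wall is a net of β-1,3-glucan made at the plasma membrane, to which β-1,6-glucan, chitin and mannoproteins are joined. Secreted and membrane-anchored enzymes cut, elongate and cross-link these chains, so that the wall can yield during growth and be strengthened under stress. Damage or stretch is sensed by membrane proteins that act through the GTPase Rho1, protein kinase C and a MAP kinase cascade ending in Slt2, which switches on wall genes partly through the transcription factor Rlm1. Cells that stop growing are known to thicken and rebuild their walls.

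The members went in both directions. Of the 44 tested, 14 were higher in the biofilm, 7 were lower and 23 did not pass in the limma fit across all genes (Benjamini-Hochberg adjusted p below 0.05), where 38.0% of all genes tested were higher and 24.4% lower. The 21 called members are set against 62.5% of all genes called in either direction. At least 2-fold changes were seen for 7 higher members, EXG1, EXG2, UTR2, PST1, SCW10, SLT2 and CRH1, where 19.4% of all genes were, and for 4 lower ones, YPS1, KRE1, UTH1 and TOS1, where 13.0% of all genes were. The groups did not overlap for 22 members, and for 68.0% of all genes tested. The median log2 fold change (biofilm minus bottom layer, on the log2(signal + 16) scale) was -0.07 over the 44 members and 0.17 over all genes. All folds given here are taken on that scale, so for dim genes they are smaller than the ratio of the printed signals. As shares of the tested members, 31.8% were higher and 15.9% lower; whether these differ from the shares of all genes was not tested. Centring each array on its median moved the median of all genes to -0.03 and gave 10 higher and 12 lower members. With that centring 30.9% of all genes were higher and 31.4% lower.

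**Figure D1:**
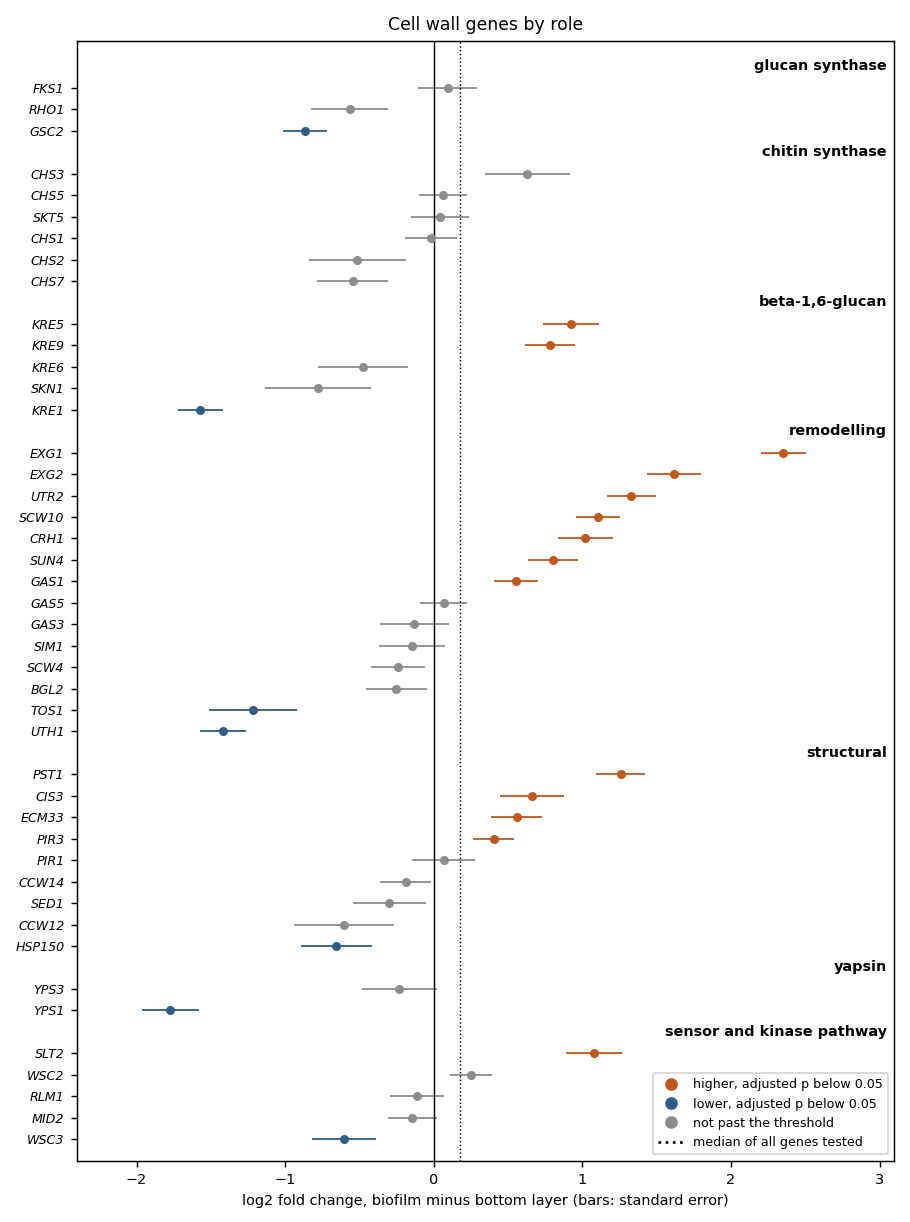
Log2 fold change of the 44 tested members (x axis, biofilm minus bottom layer; bars are standard errors of the limma fit, n = 3 arrays a group), grouped by role and sorted within a role. Orange points were higher and blue points lower at an adjusted p below 0.05, and grey points did not pass. The dotted line is the median of all 4242 genes tested, 0.17. To its right lie 7 of 14 remodelling genes as called genes, where 38.0% of all genes were higher. No gene of the chitin synthase group is coloured, where 62.5% of all genes were called.

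Of the glucan synthase genes, one catalytic subunit was lower in the biofilm and the other did not pass. GSC2 (YGR032W, also called FKS2), the subunit known to take over when glucose is gone or the wall is stressed, had signals of 1357, 1478 and 1162 in the biofilm arrays, against 2494, 2323 and 2475 in the bottom layer arrays. All biofilm arrays lay below all bottom layer arrays, a 1.82-fold lower level (log2 fold change -0.87, SE 0.15, adjusted p = 0.000444). FKS1 (YLR342W), the subunit of growing cells, read 3002, 2439 and 1893 in the biofilm, against 2038, 2713 and 2061 in the bottom layer. Its groups overlapped, and the gene did not pass (log2 fold change 0.09, SE 0.20, adjusted p = 0.70).

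Both genes have further probe sets. The probe sequences were not used here, so whether signal from either gene reached probe sets of the other was not tested. All 6 other probe sets of GSC2 were lower and called, from -2.09 to -0.78 on the log2 scale, when every probe set was fitted on its own, an alternative chosen after seeing the data. Of the 7 others of FKS1, 2 lay under the background in a group, and the remaining 5 ran from 0.0016 to 1.64, of which 1 was called higher. When the median signal of its 8 probe sets was taken on each array and then fitted, FKS1 was higher, by 0.83 (adjusted p = 0.00456 in limma). That value is not a median of the fold changes of the probe sets, of which only 1 was called on its own. The log2 fold change of FKS1 exceeded that of GSC2 by 0.96 (SE 0.22), with no overlap between the groups in the log ratio per array. That difference had an exact two-sided permutation p = 0.1, the smallest the 20 labellings allow, and 0.127 after adjustment over 19 pairs of related members.

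**Figure D2:**
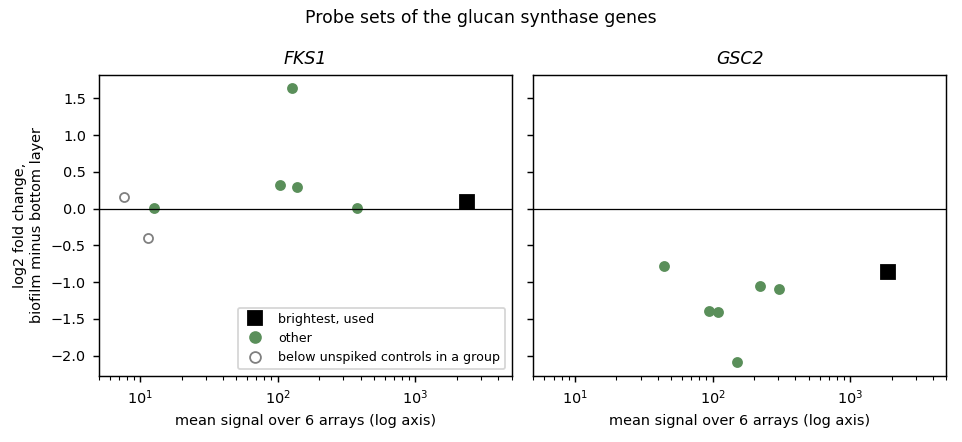
Log2 fold change (y axis, biofilm minus bottom layer) against mean signal over the 6 arrays (x axis, log scale) for every probe set paired with FKS1 (8) or GSC2 (7) alone. The square is the brightest probe set, used in the report, and open circles are probe sets under the background on every array of a group; all 7 points of GSC2 lie below 0, while the filled points of FKS1 lie between 0.0016 and 1.64.

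RHO1 (YPR165W), the GTPase that activates the synthase and the kinase cascade, read 1250, 1222 and 1283 in the biofilm, against 1586, 3042 and 1331 in the bottom layer. The biofilm arrays were lower on each reading, but bottom layer replicate 2 was far above the other 2, and the gene did not pass (log2 fold change -0.57, SE 0.26, adjusted p = 0.0784). Without bottom layer replicate 3 it passed, at -0.80 (adjusted p = 0.0153), and without bottom layer replicate 2 it was -0.21 (adjusted p = 0.279).

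The chitin synthase group holds the synthase genes CHS1, CHS2 and CHS3 and genes for helpers of Chs3. None of its 6 tested genes passed the limma test, where 62.5% of all genes tested did. Whether that differs was not tested. Of the 6, CHS7 alone had an unadjusted p below 0.05 in limma. CHS3 (YBR023C), which makes most of the chitin of the lateral wall, read 961, 814 and 666 in the biofilm, against 694, 652 and 298 in the bottom layer, so that the groups overlapped at 1 array and bottom layer replicate 3 was the lowest of all (log2 fold change 0.63, SE 0.29, adjusted p = 0.0770). It passed without bottom layer replicate 1 (0.84, adjusted p = 0.0429) or replicate 2 (0.80, adjusted p = 0.0311), but without replicate 3 it was 0.25 (adjusted p = 0.247), and with the ACT1 ratio as a covariate 0.0991 (adjusted p = 0.774). CHS1, the repair synthase of cell separation, averaged 930 ± 165 in biofilm cells and 939 ± 134 in bottom layer cells (mean ± SD, n = 3 in each group, here and below). CHS2, the synthase of the primary septum, averaged 204 ± 38.0 in biofilm cells and 323 ± 154 in bottom layer cells.

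The genes for Chs3 helpers did not pass. CHS7, needed for Chs3 to leave the endoplasmic reticulum, averaged 508 ± 46.0 in biofilm cells and 780 ± 257 in bottom layer cells. CHS5, of the exomer coat that carries Chs3 to the membrane, averaged 701 ± 86.6 and SKT5, the Chs3 activator, 254 ± 44.8 in the biofilm, against 671 ± 73.6 and 246 ± 41.2 in the bottom layer. CHS6, an exomer cargo adaptor, was too dim to be tested, at 36.1 ± 5.76 in biofilm cells and 53.6 ± 11.6 in bottom layer cells. Without bottom layer replicate 3, CHS2 and CHS7 fell, by 0.94 (adjusted p = 0.00296) and by 0.85 (adjusted p = 0.000986) on the log2 scale. Without bottom layer replicate 2, CHS2 was -0.21 (adjusted p = 0.558) and CHS7 -0.39 (adjusted p = 0.180), against -0.51 and -0.55 with all arrays.

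The β-1,6-glucan genes split. KRE1 (YNL322C), a wall-anchored protein of late β-1,6-glucan assembly and a receptor of the K1 killer toxin, read 1406, 1231 and 1073 in the biofilm, against 3363, 3872 and 3832 in the bottom layer. It was 2.97-fold lower (log2 fold change -1.57, SE 0.15, adjusted p = 1.25e-05), with a wide gap between the groups.

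KRE5 and KRE9 went the other way. KRE5 (YOR336W), an endoplasmic reticulum protein needed for most β-1,6-glucan, read 223, 236 and 160 in the biofilm, against 94.1, 94.4 and 111 in the bottom layer, 1.90-fold higher (adjusted p = 0.00154). Of the 5 dimmer probe sets of KRE5, 3 lay below the background in a group and the other 2, at -0.11 and 0.57, did not pass. KRE9 (YJL174W), a secreted glycoprotein of the pathway, read 2156, 1686 and 1742 in the biofilm, against 994, 1282 and 955 in the bottom layer, 1.72-fold higher (adjusted p = 0.00203).

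The Golgi pair KRE6 and SKN1 did not pass with all arrays. KRE6 averaged 268 ± 52.5 in biofilm cells and 405 ± 193 in bottom layer cells, and SKN1 averaged 134 ± 42.5 in biofilm cells and 261 ± 144 in bottom layer cells. On both, bottom layer replicate 3 read within the range of the biofilm arrays, and bottom layer replicate 2 was the highest. Without bottom layer replicate 3 both passed as lower, KRE6 at -0.82 (adjusted p = 0.0142) and SKN1 at -1.19 (adjusted p = 0.00393). Without bottom layer replicate 2, KRE6 was -0.14 (adjusted p = 0.644) and SKN1 -0.39 (adjusted p = 0.256), against -0.48 and -0.78 with all arrays. KNH1, the homologue of KRE9, was too dim to be tested, at 66.7 ± 5.91 in biofilm cells and 59.5 ± 41.2 in bottom layer cells.

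**Figure D3:**
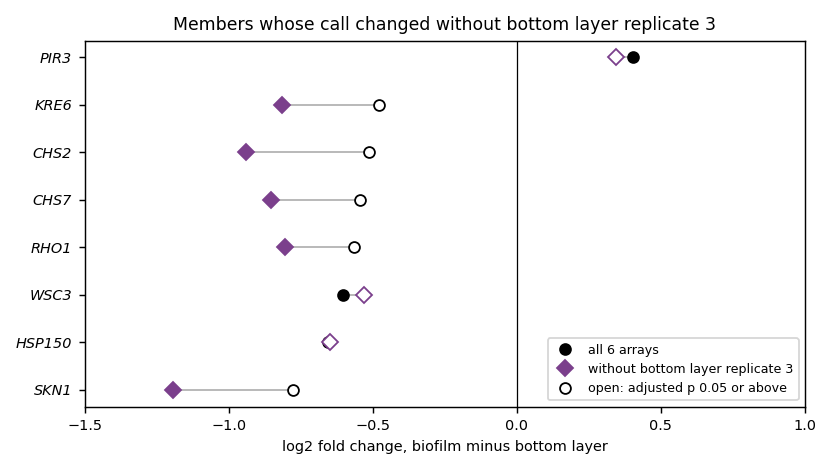
Log2 fold change (x axis, biofilm minus bottom layer) of the 8 members whose call changed when bottom layer replicate 3 was left out. Black circles are the fit with all 6 arrays and purple diamonds the fit without it, and open symbols have an adjusted p of 0.05 or above; SKN1, RHO1, CHS7, CHS2 and KRE6 passed as lower without that array, while HSP150, WSC3 and PIR3 no longer passed.

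Of the 14 genes grouped under remodelling, all tested, 7 were higher, 2 were lower and 5 did not pass. Of all genes, 38.0% were higher and 24.4% lower, and the difference was not tested. Not all of the 14 encode established enzymes. The median of the 14 log2 fold changes was 0.31. Both exo-β-1,3-glucanase genes among the members rose. EXG1 (YLR300W), which encodes the main secreted exoglucanase, read 3055, 2497 and 2974 in the biofilm, against 585, 558 and 485 in the bottom layer. It was 5.11-fold higher (log2 fold change 2.35, SE 0.15, adjusted p = 1.01e-06), the greatest rise among the 44 members in that fit. EXG2 (YDR261C), its membrane-anchored relative, read 353, 365 and 385 in the biofilm, against 95.5, 98.0 and 137 in the bottom layer, 3.07-fold higher (log2 fold change 1.62, SE 0.18, adjusted p = 2.91e-05).

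Both member genes for enzymes that join chitin to glucan rose. UTR2 (YEL040W, also called CRH2) read 268, 286 and 263 in the biofilm, against 86.7, 104 and 106 in the bottom layer, 2.51-fold higher (adjusted p = 5.55e-05). CRH1 (YGR189C) averaged 1680 ± 372 in biofilm cells and 810 ± 95.9 in bottom layer cells, 2.03-fold higher (adjusted p = 0.000739). On neither did the groups overlap.

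Of a pair of glucanase-like wall proteins, one gene rose and the other did not pass. SCW10, one of the pair, averaged 2128 ± 19.6 in biofilm cells and 988 ± 144 in bottom layer cells (2.15-fold higher, adjusted p = 0.000104), and its second probe set was also called higher. Its relative SCW4 averaged 4136 ± 551 in biofilm cells and 4902 ± 780 in bottom layer cells (adjusted p = 0.267). The log2 fold change of SCW4 minus that of SCW10 was -1.35 (SE 0.23, exact two-sided permutation p = 0.1, adjusted over the pairs 0.127).

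GAS1, the main glucan-elongating transferase gene, averaged 4263 ± 252 in biofilm cells and 2902 ± 191 in bottom layer cells, 1.47-fold higher (adjusted p = 0.00723), a call lost when arrays were centred on their medians (log2 fold change 0.35, adjusted p = 0.0966). Its relatives GAS3 and GAS5 averaged 603 ± 81.1 and 3435 ± 225 in the biofilm, against 683 ± 222 and 3292 ± 424 in the bottom layer, and did not pass. BGL2, a glucanase and transferase abundant in the wall, averaged 3522 ± 768 in biofilm cells and 4168 ± 704 in bottom layer cells and did not pass.

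The SUN family, glucanase-like proteins that take part in septation, gave 2 rises and 1 fall, one of the rises in NCA3 of the wider list (log2 fold change 0.62, adjusted p = 0.0233). The call of NCA3 was lost without biofilm replicate 1 or 3 or bottom layer replicate 1 or 3 (adjusted p up to 0.0751). SUN4 averaged 299 ± 28.5 in biofilm cells and 165 ± 14.9 in bottom layer cells, 1.74-fold higher (adjusted p = 0.00178). UTH1 (YKR042W), a family member that has also been placed at mitochondria, read 2848, 3154 and 2858 in the biofilm, against 7639, 7716 and 8425 in the bottom layer, 2.68-fold lower (log2 fold change -1.42, SE 0.15, adjusted p = 2.21e-05). The log2 fold changes of SUN4 and UTH1 differed by 2.22 (SE 0.15, exact two-sided permutation p = 0.1, adjusted over the pairs 0.127). SIM1 averaged 591 ± 58.7 in biofilm cells and 677 ± 216 in bottom layer cells and did not pass.

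TOS1, which encodes a wall-bound protein of unknown function, was 2.32-fold lower, at 464 ± 84.2 in biofilm cells and 1178 ± 602 in bottom layer cells (adjusted p = 0.00452). The fall differed in size between bottom layer arrays, which read 951, 1860 and 722.

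**Figure D4:**
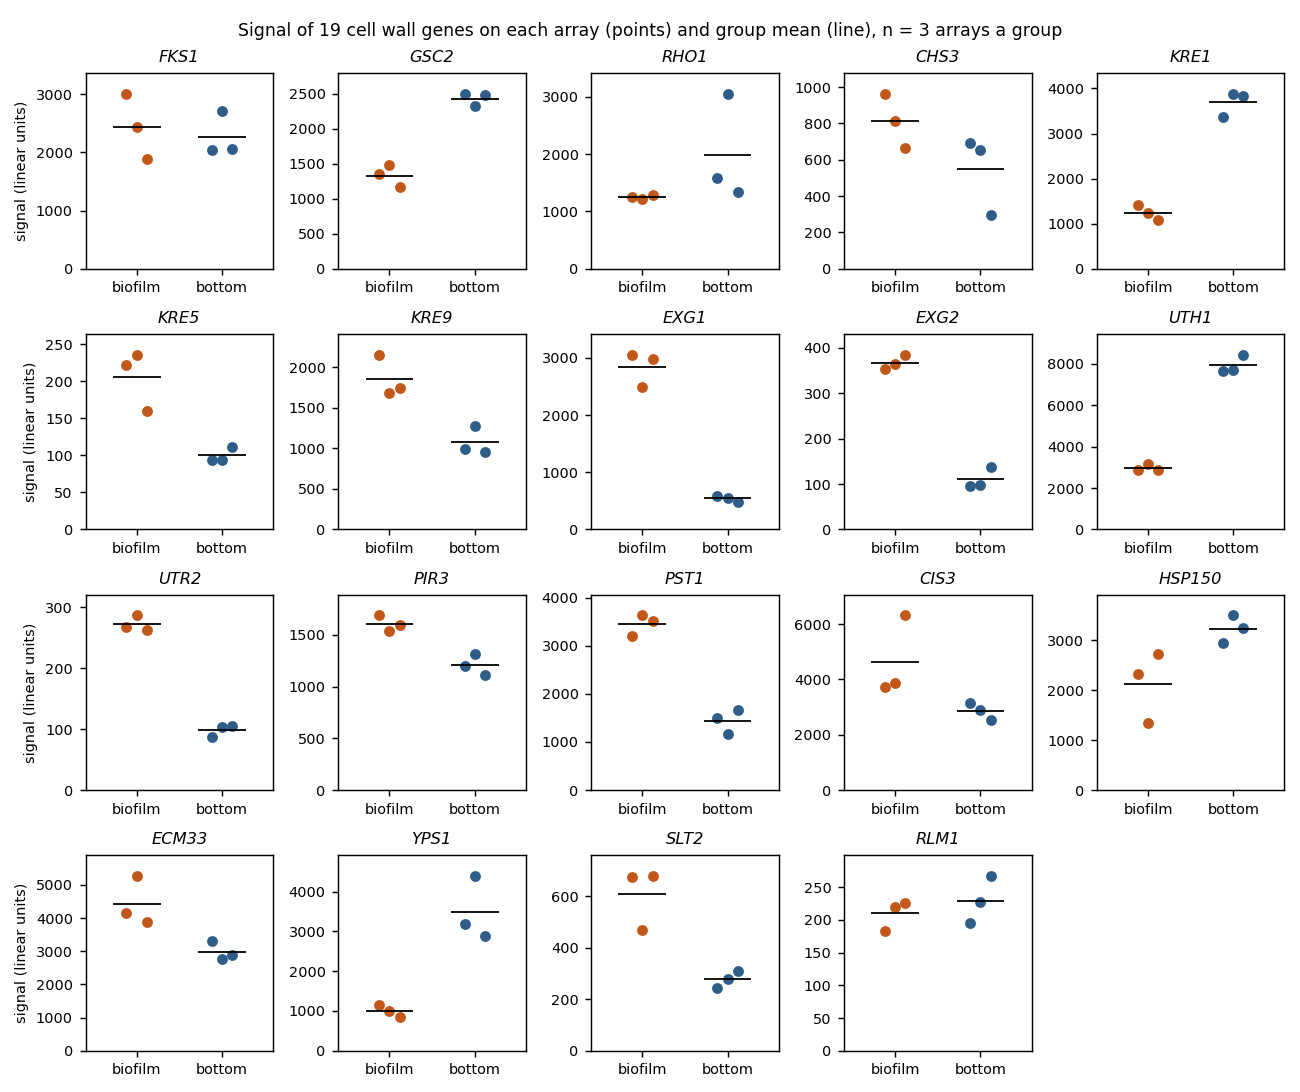
Signal in linear units (y axis, from 0, with its own range in each panel) of 19 members, those that the naming rule gives array by array, on the 3 biofilm arrays (orange, left) and the 3 bottom layer arrays (blue, right); replicates 1 to 3 run from left to right and the line is the group mean. EXG1, EXG2, UTR2 and PST1 stand clear of the bottom layer on every biofilm array, KRE1, UTH1, YPS1 and GSC2 stand clear below it, and FKS1, CHS3 and RLM1 overlap.

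Of the 9 structural wall protein genes, all tested, 4 were higher (44.4%), 1 was lower (11.1%) and 4 did not pass. Over all genes tested 38.0% were higher and 24.4% lower, and the difference was not tested. PST1 (YDR055W), a lipid-anchored wall protein gene known to be raised by wall damage, read 3194, 3627 and 3512 in the biofilm, against 1496, 1167 and 1667 in the bottom layer. It was 2.39-fold higher (log2 fold change 1.26, SE 0.17, adjusted p = 8.27e-05), with a clear gap between the groups. Its paralog ECM33 (YBR078W), needed for normal wall structure, read 4148, 5267 and 3871 in the biofilm, against 3296, 2760 and 2902 in the bottom layer, 1.47-fold higher (adjusted p = 0.0147). A second, dimmer probe set of ECM33 ran the other way without passing (log2 fold change -0.43), and the call was lost over both probe sets (0.06, adjusted p = 0.745), without biofilm replicate 2 (0.43, adjusted p = 0.0732) and under median centring (0.36, adjusted p = 0.139).

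The PIR genes, whose products carry internal repeats through which they are bound to β-1,3-glucan, went separate ways. CIS3 (YJL158C) read 3733, 3883 and 6315 in the biofilm, against 3157, 2883 and 2532 in the bottom layer, 1.58-fold higher (adjusted p = 0.0196). The call was lost without biofilm replicate 3 (0.42, adjusted p = 0.0723), under median centring (0.46, adjusted p = 0.108) and with the ACT1 ratio as a covariate (0.50, adjusted p = 0.105). HSP150 (YJL159W, also called PIR2), also raised by heat and starvation, read 2326, 1334 and 2727 in the biofilm, against 2941, 3497 and 3256 in the bottom layer, 1.58-fold lower (adjusted p = 0.0330). Without biofilm replicate 2 its log2 fold change was -0.35 in place of -0.66 (adjusted p = 0.128), and the call was also lost without each bottom layer array (adjusted p = 0.0566, 0.0611 and 0.0596).

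PIR3 (YKL163W) read 1687, 1533 and 1594 in the biofilm, against 1204, 1319 and 1112 in the bottom layer, 1.32-fold higher (log2 fold change 0.40, SE 0.14, adjusted p = 0.0264). The groups did not overlap, but the call was lost without biofilm replicate 1, 2 or 3 or bottom layer replicate 1 or 3 (adjusted p between 0.050 and 0.0874), and under median centring (0.20, adjusted p = 0.247). PIR1 averaged 1215 ± 146 in biofilm cells and 1192 ± 386 in bottom layer cells and did not pass. The PIR genes share repeat sequence, so signal from one could reach another's probes, and the probe sequences were not used here.

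CCW12, CCW14 and SED1, which encode lipid-anchored mannoproteins, did not pass. CCW12, for a small protein that stabilises the wall of growing cells, read 10877, 18023 and 16093 in the biofilm, against 19131, 15466 and 37322 in the bottom layer, where replicate 3 was the highest of the 6 arrays. Its log2 fold change was -0.60 (adjusted p = 0.142), and -0.23 without bottom layer replicate 3 (adjusted p = 0.401). Without bottom layer replicate 2 it passed as lower (-0.86, adjusted p = 0.0289), and with the ACT1 ratio as a covariate the sign turned (0.085, adjusted p = 0.701). CCW14 averaged 6369 ± 481 in biofilm cells and 7278 ± 739 in bottom layer cells. SED1, the major wall protein of resting cells, averaged 6044 ± 1988 in biofilm cells and 7222 ± 1051 in bottom layer cells (log2 fold change -0.30, adjusted p = 0.304).

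The yapsins are membrane-anchored aspartyl proteases that trim wall proteins and enzymes at the cell surface. YPS1 (YLR120C) read 1143, 1009 and 845 in the biofilm, against 3174, 4387 and 2883 in the bottom layer. It was 3.42-fold lower (log2 fold change -1.77, SE 0.19, adjusted p = 2.11e-05), the greatest fall among the 44 members. YPS3, which lies next to it on the chromosome, averaged 237 ± 9.27 in biofilm cells and 296 ± 113 in bottom layer cells and did not pass. MKC7, the closest relative of YPS1, was too dim for the main test. It averaged 71.8 ± 19.1 in biofilm cells and 30.8 ± 4.99 in bottom layer cells, and was called higher when no dim gene was left out (1.86-fold, adjusted p = 0.00414), although 1 of its bottom layer arrays lay below the background.

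In the integrity pathway, the kinase gene SLT2 rose, and of the 3 sensor genes tested WSC3 fell and the others did not pass. SLT2 (YHR030C), the MAP kinase at the end of the cascade, read 674, 471 and 678 in the biofilm, against 244, 277 and 310 in the bottom layer, 2.11-fold higher (log2 fold change 1.08, SE 0.19, adjusted p = 0.000579). RLM1 (YPL089C), the transcription factor that Slt2 phosphorylates, read 183, 220 and 226 in the biofilm, against 195, 227 and 267 in the bottom layer, with overlapping groups (log2 fold change -0.12, SE 0.18, adjusted p = 0.599). These are transcript levels and say nothing of phosphorylation.

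Of the sensor genes, WSC3 read 248, 307 and 454 in the biofilm, against 512, 447 and 560 in the bottom layer, 1.52-fold lower with 1 array overlapping (adjusted p = 0.0319). That call was lost without biofilm replicate 1 or 2 or bottom layer replicate 1 or 3 (adjusted p between 0.0760 and 0.132). WSC2 averaged 1330 ± 81.0 in biofilm cells and 1119 ± 111 in bottom layer cells, and MID2 averaged 433 ± 36.8 in biofilm cells and 483 ± 73.8 in bottom layer cells, and neither passed. MTL1, the relative of MID2, was too dim for the main test at 19.2 ± 4.88 in biofilm cells and 57.1 ± 21.2 in bottom layer cells. It was called lower when no dim gene was left out (2.04-fold, adjusted p = 0.00356), with 1 biofilm array below the background.

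A wider list of 67 other wall genes, 47 of them tested, had 14 higher (29.8%) and 10 lower (21.3%), where 38.0% of all genes tested were higher and 24.4% lower. Of 10 precursor and traffic genes of chitin tested, 6 were higher and 1 was lower; whether that differs from all genes was not tested. PCM1, which converts N-acetylglucosamine phosphate on the way to the chitin precursor, read 1857, 1970 and 2097 in the biofilm, against 594, 494 and 665 in the bottom layer, 3.33-fold higher (adjusted p = 6.67e-06). The genes for the steps beside it, GNA1 and QRI1, and BCH1, BCH2 and BUD7, relatives of CHS6 in the exomer coat, were the other 5. GFA1, the first and committed step, averaged 947 ± 158 in biofilm cells and 1172 ± 453 in bottom layer cells and did not pass. SHC1, a sporulation-linked homologue of the Chs3 activator SKT5, read 115, 84.2 and 98.5 in the biofilm, against 844, 1163 and 685 in the bottom layer, 7.80-fold lower (adjusted p = 2.09e-06).

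Of the genes that help glucan synthesis and its proteins through the secretory pathway, 4 of 8 tested were higher and 1 lower. Over all genes tested 38.0% were higher and 24.4% lower, and the difference was not tested. The lower gene was BIG1, at 186 ± 23.0 in biofilm cells and 364 ± 81.2 in bottom layer cells (log2 fold change -0.90, adjusted p = 0.00238 in limma). A second, dimmer probe set of BIG1 did not pass (log2 fold change -0.49). TRS65, also known as KRE11 from its β-1,6-glucan defect, averaged 236 ± 37.8 in biofilm cells and 50.8 ± 6.36 in bottom layer cells (3.75-fold higher, adjusted p = 9.92e-06). CWH41, the glucosidase that first trims N-linked glycans, averaged 1226 ± 97.9 in biofilm cells and 449 ± 67.7 in bottom layer cells (2.69-fold higher, adjusted p = 2.92e-05). FKS3, a relative of the catalytic subunits, fell among the dimmest 25% of genes and was not tested, with signals of 58.8, 30.1 and 37.7 in the biofilm, against 167, 283 and 172 in the bottom layer. It was called lower (log2 fold change -1.93, adjusted p = 8.72e-05) where the dim genes were picked by mean linear signal, a setting weighed with its values known. Of the 7 other probe sets of FKS3, 6 lay below the background in a group, and the remaining one did not pass (log2 fold change -0.33).

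Of 6 further remodelling genes tested, 2 were higher (33.3%) and 1 lower (16.7%), where 38.0% of all genes were higher and 24.4% lower. The chitinase gene CTS1, which frees daughter cells from mothers, averaged 216 ± 23.1 in biofilm cells and 708 ± 313 in bottom layer cells (2.92-fold lower, adjusted p = 0.000888). DFG5, a mannosidase-like gene for tying wall proteins to glucan, averaged 1575 ± 143 in biofilm cells and 972 ± 83.5 in bottom layer cells (1.61-fold higher, adjusted p = 0.00185). Among 8 further structural genes 1 was higher (12.5%) and 2 were lower (25%), beside the same shares of all genes. Neither difference from all genes was tested. NCW2, a wall protein gene known to follow the integrity pathway, averaged 1039 ± 215 in biofilm cells and 528 ± 232 in bottom layer cells (2.02-fold higher, adjusted p = 0.00696). CWP1, for an abundant wall mannoprotein, was lower, at 9090 ± 785 in biofilm cells and 16008 ± 5651 in bottom layer cells (adjusted p = 0.0214), a call lost without biofilm replicate 1 or 3 (adjusted p up to 0.0722). SPI1 averaged 228 ± 61.1 in biofilm cells and 11782 ± 2704 in bottom layer cells and had the greatest fall of the wider list.

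Among 13 further sensor and cascade genes tested, 1 was higher (7.7%) and 5 were lower (38.5%). The shares over all genes tested were 38.0% and 24.4%, and the difference was not tested. BCK1, the first kinase of the MAP kinase cascade above Slt2, read 204, 192 and 162 in the biofilm, against 83.2, 93.0 and 107 in the bottom layer, 1.83-fold higher (adjusted p = 0.00132). BAG7, a GTPase-activating protein for Rho1, read 34.8, 44.3 and 27.4 in the biofilm, against 860, 1008 and 745 in the bottom layer. On the log2(signal + 16) scale it was 17.2-fold lower (adjusted p = 2.66e-07), less than the ratio of the printed signals. The kinase gene MKK2, between Bck1 and Slt2, and the Slt2 phosphatase gene SDP1 were among the lower genes, at 82.6 ± 16.4 and 266 ± 11.7 in the biofilm, against 139 ± 25.7 and 486 ± 109 in the bottom layer; both were picked out after their values were seen. The call of MKK2 was lost without biofilm replicate 3 (adjusted p = 0.0564). PKC1 and the sensor gene SLG1, also called WSC1, were too dim to be tested.

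Fewer cells expressing a gene and less RNA per cell cannot be told apart in these bulk samples. The 5 control probe sets for 18S ribosomal RNA averaged 893 to 1217 in biofilm cells and 3842 to 5759 in bottom layer cells, and their part in the results was not tested. With the ACT1 ratio as a covariate, 12 members were higher and 12 lower, beside 34.1% and 24.5% of all genes tested. CHS2, CHS7, RHO1, KRE6, SKN1 and SIM1 then passed as lower, at log2 fold changes between -1.58 and -0.54. PIR3, CIS3 and WSC3 no longer passed. EXG1, EXG2, UTR2, CRH1, SCW10, SUN4, PST1, SLT2, KRE5, KRE9, KRE1, GSC2, UTH1, TOS1 and YPS1 kept their direction and their call under each of the 18 alternatives in which they were tested. KRE5 was too dim to be tested as the median over its probe sets. With the dimmest 50% of genes left out, KRE5, EXG2, UTR2 and SUN4 were not tested.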

How the data were processed

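Total RNA was amplified with biotin label and read on Affymetrix arrays, per the labels' protocols. The authors deposited 1 linear signal intensity per probe set and array, made with MAS5 per the submitters' processing notes, whose settings and absence calls are not stated in the sources. The deposited intensities of the 9335 probe sets share a mean near 500 on every array once 2% at each end is trimmed. Probe sets paired with 1 gene in the platform table (6504) were named through gene identifiers of assembly R64. The brightest probe set per gene, by mean log2(signal + 16) over 6 arrays, was kept. By the same mean, 25% of the 5656 genes, the dimmest, did not enter the fit. A linear mean was run first, and the log2 mean was taken after both results were seen, because it gave the gene counts of an earlier analysis of these data; the linear mean is kept as an alternative.

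The groups were fitted in limma 3.58.1 (R 4.3.3; variance trend, two-sided, Benjamini-Hochberg over 4242 genes, no block); the fit was tested on simulated data. Background was the brightest of 19 unspiked control probe sets per array. Given array by array were FKS1, GSC2, RHO1, CHS3, PIR3, SLT2, RLM1 and up to 4 further called, non-overlapping members per role. Of the wider list, up to 2 called genes with the smallest p per role were named, array by array or as means. The remaining members were all to be given, by value or range. Other genes of the wider list given with values, and other members given array by array, were chosen after their values were seen. Members, lists and rules were chosen with earlier results of these data known. Per-array log ratios of 19 pairs were compared by exact permutation. The alternatives are in the closing section. Protein and promoter sequences were not used here, so the motif and protein comparisons planned were not made.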

Additional observations from a re-analysis of the deposited data

How the results depend on the processing

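The 18 alternatives were pseudocounts of 1 and 64, array weights, quantile normalization, no filter or a filter on the dimmest 50%, a fit without variance trend, median centring, the ACT1 ratio as a covariate, a replicate block, the median over probe sets, each array left out, and, added after seeing the data, probe sets and dim genes picked by mean linear signal. The last called 1634 genes higher and 1059 lower and changed no member's call; of the wider list it added FKS3. Lower members numbered 7 with the settings of the report, 11 under quantile normalization and 12 under median centring. They numbered 11 with array weights and 12 with the ACT1 covariate. In the same order, 24.4%, 29.5%, 31.4%, 27.3% and 24.5% of all genes tested were lower. The cause was not tested. Under median centring the added lower members were RHO1, CHS2, CHS7, KRE6 and SKN1, with all 6 arrays kept. They are the members that also passed as lower without bottom layer replicate 3. All of them but CHS2 were added under quantile normalization as well. Leaving out each array gave 12 to 15 higher and 5 to 10 lower members. Of all genes, 34.2% to 37.5% were then higher and 21.8% to 25.5% lower. Of the 21 called members 15 kept call and direction under every alternative in which they were tested; the other 6 were PIR3, HSP150, WSC3, CIS3, ECM33 and GAS1, whose calls were lost in at least 1.

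Every change of sign was in a member that did not pass with the settings of the report, and none of the turned values passed. Under median centring FKS1 was -0.11, CHS5 -0.14, SKT5 -0.16, GAS5 -0.13 and PIR1 -0.13. Under quantile normalization CHS5 was -0.064, SKT5 -0.17, PIR1 -0.0227 and CCW14 0.032. With the ACT1 covariate FKS1 was -0.0599, SKT5 -0.0392, PIR1 -0.34, CCW12 0.085, YPS3 0.047 and RLM1 0.0313. With array weights SKT5 was -0.0838, YPS3 0.20 and RLM1 0.0313. As each array was left out, FKS1 ran from -0.0661 to 0.26, CHS1 from -0.15 to 0.0972, CHS5 from -0.034 to 0.13, SKT5 from -0.0905 to 0.14, GAS3 from -0.40 to 0.0849, GAS5 from -0.0052 to 0.17, SIM1 from -0.38 to 0.0763, PIR1 from -0.12 to 0.31 and YPS3 from -0.52 to 0.0278.

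With the replicate number as a block 15 members were higher and 9 lower, and 1590 and 1046 of all genes; the 3 added members were CHS3 (higher), CHS7 and SKN1 (lower). Deviations from the group means of same-numbered arrays correlated across genes at -0.01, -0.09 and 0.16, so the numbers do not show a pairing; only the replicate 3 arrays correlated best with their own number. Signals near background limit CHS6, KNH1, MKC7 and MTL1.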

Other observations

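The bottom layer arrays differed more among themselves than the biofilm arrays did. The SD of log2(signal + 16) over the 3 arrays was larger in the bottom layer for 27 of the 44 tested members (61.4%), and for 61.4% of all genes tested. The median SD of the members was 0.19 over biofilm arrays and 0.21 over bottom layer arrays. In 15 members, 34.1%, bottom layer replicate 2 was the highest and replicate 3 the lowest of the bottom layer arrays, as in 30.2% of all genes; RHO1, CHS2, KRE6, SKN1 and TOS1 were among them, a selection made after their values were seen.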
